A study of Homo sapiens with 36 samples.

Results

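Serine made inside the cell, and the folate pathway that passes its carbon on, are described here through 9 enzyme genes: PHGDH, PSAT1 and PSPH of serine synthesis, SHMT1 and MTHFD1 of the cytosolic folate pathway, and SHMT2, MTHFD2, MTHFD1L and ALDH1L2 of the mitochondrial folate pathway. The genes were chosen by a list of symbols, and are 9 of the 61544 genes in the count table. Each symbol matched 1 Ensembl identifier. All 9 passed the filter on low counts, which left 20767 genes for the tests.

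The cells were MIA PaCa-2, an established line of human pancreatic cancer. RNA with a poly(A) tail was sequenced from cells that carried Cas9 under doxycycline (dox) control together with a guide RNA. The guide targeted PELO in the PELO line, HBS1L in the HBS1L line, and nothing in the NTC line (non-targeting control). PELO and HBS1L form the complex that releases stalled ribosomes, and the series asks what their loss does in cells with a destabilised SKI complex. The 12 groups were the PELO line with dox and without dox, the HBS1L line with dox and without dox, and the NTC line with dox and without dox, each at 48 h and at 96 h, with 3 libraries per group and 36 in all. Dox was given at 2 µg/mL. Every group shared the same medium, a serum free of tetracycline, the inducible Cas9 and a guide. Whether a line is 1 clone or a pool of cells, and whether the 3 libraries of a group came from separate cultures, is not given in the labels. The p-values therefore cover only the spread among these libraries, which may be technical.

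Cells make serine from a glycolysis intermediate. PHGDH oxidises 3-phosphoglycerate, PSAT1 adds an amino group taken from glutamate, and PSPH removes the phosphate. SHMT1 in the cytosol and SHMT2 in mitochondria move a carbon from serine to tetrahydrofolate and leave glycine. In mitochondria MTHFD2 and MTHFD1L turn the folate-bound carbon into formate, which leaves for the cytosol, where MTHFD1 binds it to folate again for purine and thymidylate synthesis. ALDH1L2 burns 10-formyl-folate to CO2 in mitochondria and makes NADPH. ATF4, the transcription factor of the integrated stress response, is known to raise the serine synthesis genes and the mitochondrial folate genes. Many cancers use these pathways for growth.

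Libraries held 45356024 to 107436235 counts. The deepest was replicate 2 of the PELO line with dox at 96 h, and the next held 66704841. The member levels in the deepest library lay within or next to those of the other replicates of its group. HBS1L lay between 33.4 and 37.2 CPM (counts scaled to the size of the library) in the 6 libraries of the HBS1L line with dox, against 104 to 113 CPM in its 6 libraries without dox. Libraries of the PELO and NTC lines held 122 to 225 CPM, so HBS1L was lower in the HBS1L line without dox too. The highest levels, 216 to 225 CPM, were in the PELO line with dox at 96 h. PELO messenger RNA had 20.9, 20.2 and 20.9 CPM in the PELO line with dox at 48 h, below every other library (22.9 to 31.3 CPM), against 23.7, 25.9 and 26.0 CPM in that line without dox. This log2 change was -0.29 ± 0.056 (edgeR, adjusted p = 5.01e-05), beside -0.20 ± 0.054 in the HBS1L line and -0.16 ± 0.055 in the NTC line. The excess over the NTC response did not pass, at -0.13 ± 0.078 (adjusted p = 0.185). At 96 h dox and no-dox libraries of the PELO line overlapped, at -0.043 ± 0.054 (adjusted p = 0.488). The epithelial keratins KRT8 and KRT18 were at 788 to 1920 CPM in the group means, while EPCAM and CDH1 stayed at or below 0.0239 CPM. Of the markers of other cells, PTPRC, CD3E, MS4A1, DCN, LUM, PECAM1 and VWF were at or below 0.0871 CPM in every group, but COL1A2, CDH5, ENG and CD68 were measurable. The epithelial markers summed to 1760 CPM in the PELO line with dox at 96 h and to 3060 to 3950 CPM in the other groups. The summed level of the 5 fibroblast markers was 96.3 CPM in the PELO line with dox at 48 h and 32.2 CPM at 96 h, and lay between 141 and 259 CPM in the other groups. The 5 endothelial markers summed to 59.0 and 45.3 CPM there, and to 76.3 to 105 CPM in the other groups. The 5 leukocyte markers summed to 43.1 CPM in the PELO line with dox at 96 h and to 24.8 to 32.2 CPM in the other groups. CD68 alone made up 42.5 CPM of that highest sum. Beyond the NTC response at 96 h CD68 was higher in the PELO line, at 0.89 (log2), and CD14 was lower, at -2.39. The part of these markers in the results on the 9 enzymes was not tested.

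Promoter windows are shown for MTHFD1L, PSAT1, MTHFD2, PHGDH and SHMT1, which did not all move in the same direction, to set their letters side by side; MTHFD1, with the narrowest range of group means, also had a window and is not shown. RefSeq (build GRCh38.p14) gave windows of 300 bases, from 250 bases before to 50 bases after a start site, for 6 of the 9 genes, 9 windows in all. PSPH, SHMT2 and ALDH1L2 had none in the table. Capitals mark 3 motifs, searched on both strands. The first is TGATGNAA, letters of an element that pairs of C/EBP and ATF4 bind. The second is the E-box CACGTG. The last is the CCAAT box, spelled CCAAT, which on the opposite strand is marked where its complement stands. No marked motif overlapped another.
MTHFD1L chr6:150866236-150866535 (+ strand): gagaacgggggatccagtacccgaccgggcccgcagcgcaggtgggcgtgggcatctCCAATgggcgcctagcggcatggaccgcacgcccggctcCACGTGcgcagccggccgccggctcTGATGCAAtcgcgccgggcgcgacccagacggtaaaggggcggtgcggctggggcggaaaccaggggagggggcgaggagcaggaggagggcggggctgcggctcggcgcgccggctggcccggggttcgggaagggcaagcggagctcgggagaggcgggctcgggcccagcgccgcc
PSAT1 chr9:78296875-78297174 (+ strand): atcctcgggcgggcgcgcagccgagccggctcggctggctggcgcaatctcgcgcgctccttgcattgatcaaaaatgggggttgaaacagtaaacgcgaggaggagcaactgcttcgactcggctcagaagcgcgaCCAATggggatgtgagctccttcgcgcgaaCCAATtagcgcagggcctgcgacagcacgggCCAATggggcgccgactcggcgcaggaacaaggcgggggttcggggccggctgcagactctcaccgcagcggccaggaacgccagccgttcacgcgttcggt
MTHFD2 chr2:74198365-74198664 (+ strand): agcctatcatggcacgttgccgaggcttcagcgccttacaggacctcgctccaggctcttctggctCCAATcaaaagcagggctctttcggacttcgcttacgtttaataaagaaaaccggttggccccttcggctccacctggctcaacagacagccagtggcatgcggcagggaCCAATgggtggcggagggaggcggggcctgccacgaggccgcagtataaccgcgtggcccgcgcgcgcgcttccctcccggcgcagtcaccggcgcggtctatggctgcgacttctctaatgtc
PHGDH chr1:119711684-119711983 (+ strand): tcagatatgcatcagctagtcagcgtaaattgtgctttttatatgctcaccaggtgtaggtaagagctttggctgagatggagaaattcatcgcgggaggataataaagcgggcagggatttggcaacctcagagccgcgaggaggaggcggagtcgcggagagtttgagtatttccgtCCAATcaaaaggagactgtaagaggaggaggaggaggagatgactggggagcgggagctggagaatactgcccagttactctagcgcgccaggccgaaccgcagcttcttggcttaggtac
SHMT1 chr17:18363501-18363800 (- strand): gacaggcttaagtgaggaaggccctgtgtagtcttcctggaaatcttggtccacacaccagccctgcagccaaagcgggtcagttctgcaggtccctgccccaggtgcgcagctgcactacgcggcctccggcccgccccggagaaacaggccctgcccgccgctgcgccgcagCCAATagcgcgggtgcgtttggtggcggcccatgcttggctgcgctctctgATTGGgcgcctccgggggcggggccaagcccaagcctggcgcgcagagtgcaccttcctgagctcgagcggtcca
MTHFD1L was the only one of the 6 genes with TGATGNAA, as TGATGCAA. It lay in the window above and in 2 of the 3 other windows of MTHFD1L, which overlap it, and 3.62% of all 35116 promoter windows held that motif. CACGTG lay in windows of MTHFD1L and MTHFD1, and in 7.26% of all windows. CCAAT lay in windows of all 6 genes, 3 times in that of PSAT1, and in 34.6% of all windows. Absence of a motif says only that these letters are not in this window.

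Levels differed widely between the genes. Per kilobase of the principal transcript, PSAT1 led with a mean of 119 CPM per kb over the 36 libraries, followed by MTHFD2 at 84.2, SHMT2 at 81.9, MTHFD1 at 81.0 and PHGDH at 63.5 CPM per kb. PSPH at 30.9, SHMT1 at 29.3 and MTHFD1L at 24.8 CPM per kb formed a lower tier, and ALDH1L2 was lowest at 0.472 CPM per kb. Neighbours within a tier overlapped in their ranges of group means; PSAT1 ranged from 77.1 to 198 CPM per kb and MTHFD2 from 53.9 to 127 CPM per kb. ALDH1L2 rested on 84.5 to 418 counts per library, so its values are the least precise, whereas the other 8 genes had at least 2061 counts in every library. ALDH1L2 varied 5.01-fold between its lowest and highest group mean, PHGDH 2.66-fold and PSAT1 2.57-fold, against 1.43-fold for MTHFD1. PHGDH, PSAT1, PSPH, SHMT2, MTHFD2 and ALDH1L2 had their highest group mean in the NTC line without dox at 48 h, SHMT1 in the PELO line without dox at 96 h, MTHFD1L in the PELO line with dox at 96 h and MTHFD1 in the NTC line with dox at 96 h.

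**Figure D1:**
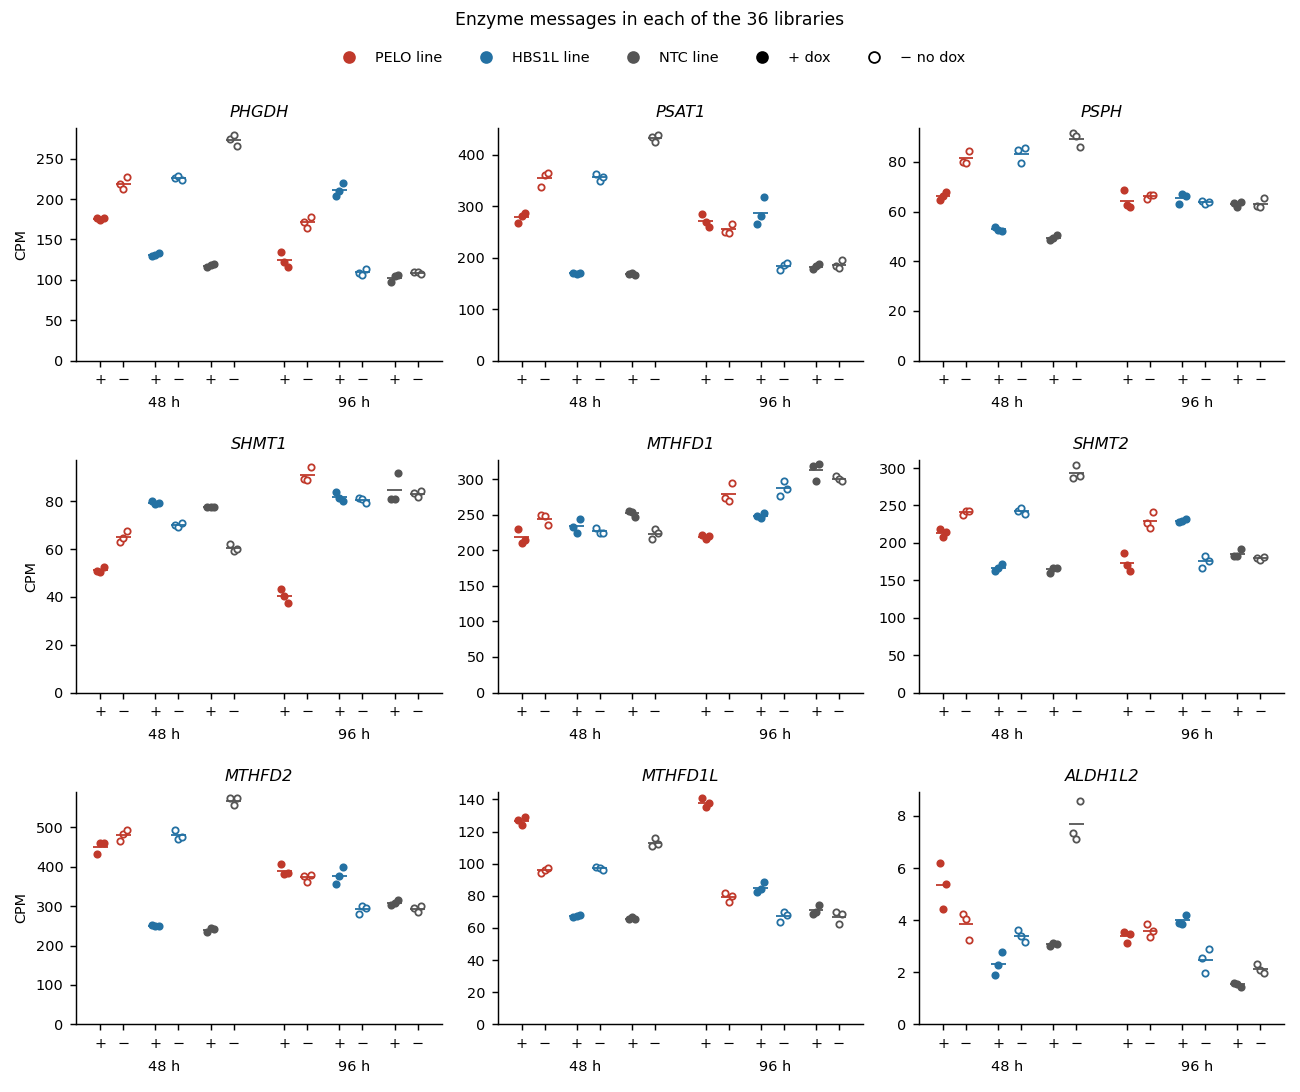
Level of each of the 9 enzyme genes in CPM (y axis, starting at 0) in every library, by group (x axis: PELO, HBS1L and NTC lines, with dox left of no dox, at 48 h and at 96 h). Each point is 1 library, filled with dox and open without, and each short line is the mean of 3; the NTC line without dox at 48 h stands highest for PHGDH, with 274, 279 and 266 CPM.

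At 48 h most of the 9 messages fell with dox in all 3 lines, the control line included. In the PELO line 6 of the 9 genes fell, MTHFD1L and ALDH1L2 rose and MTHFD2 did not pass, where 48.0% of all genes passed the test (23.7% lower and 24.2% higher); the median log2 change was -0.17 for the 9 genes and -0.02 for all genes tested. HBS1L cells had 7 genes that fell, while SHMT1 rose and MTHFD1 did not pass, where 21.5% of all genes passed (11.4% lower and 10.1% higher), and the median was -0.54 beside 0.0089. NTC cells had 7 genes that fell, and SHMT1 and MTHFD1 rose, where 35.0% of all genes passed (16.0% lower and 19.0% higher), and the median was -0.85 beside 0.017. A gene passed, here and below, with an adjusted p below 0.05 in edgeR's quasi-likelihood test with Benjamini-Hochberg adjustment over all genes tested. As these are bulk libraries, fewer cells that express a gene and less of its RNA per cell cannot be told apart.

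At 96 h most of the calls were in the targeted lines. In the PELO line MTHFD1L rose, 4 of the 9 genes fell and 4 did not pass, where 66.8% of all genes passed (34.4% higher and 32.5% lower); the median log2 change was -0.098 for the 9 genes and 0.0032 for all genes. In the HBS1L line 6 rose, MTHFD1 fell, and PSPH and SHMT1 did not pass, where 19.9% of all genes passed (11.0% higher and 8.90% lower), and the median was 0.37 beside -0.006. Among NTC libraries ALDH1L2 alone passed, lower with dox, where 7.52% of all genes passed (3.89% higher and 3.63% lower). That share of all genes was 3.31% with only these 2 groups in the fit. Leaving out 1 no-dox library gave 3.14% (replicate 1) and 2.27% (replicate 2), and leaving out 1 dox library gave 4.69% (replicate 1) and 2.49% (replicate 3). Leaving out replicate 3 without dox raised the share to 10.1%, and leaving out replicate 2 with dox raised the number of genes called from 1561 to 1908. Library numbers in the labels fall into a separate block for each time. Time and batch cannot be told apart, and no level is tested between times.

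**Figure D2:**
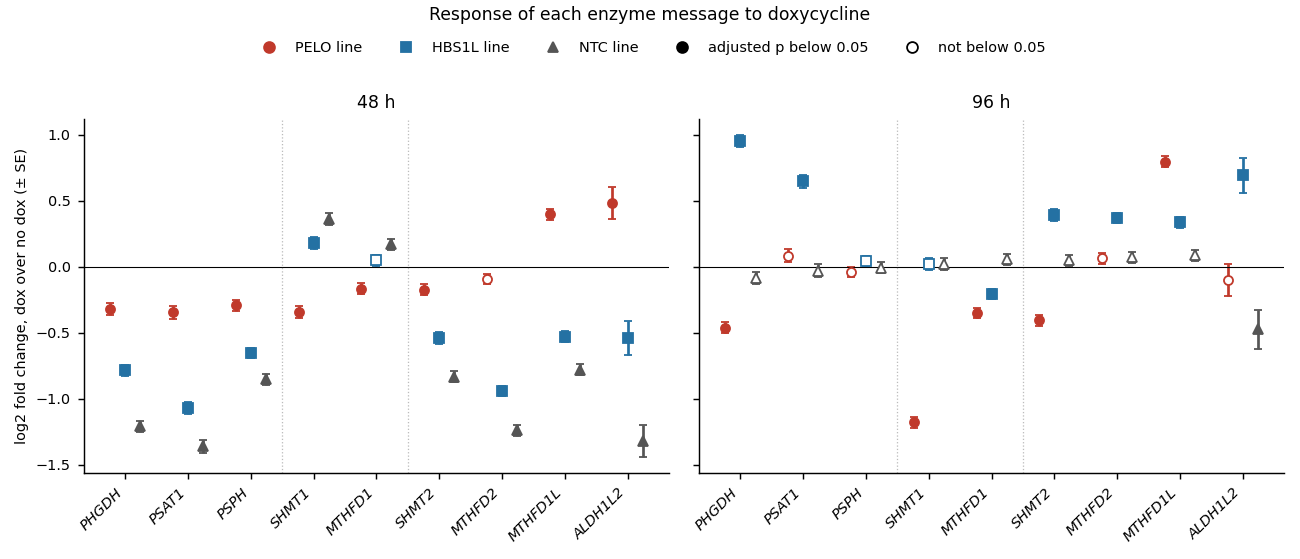
Log2 fold change with dox against no dox (y axis) for the 9 genes (x axis), in the PELO, HBS1L and NTC lines at 48 h (left panel) and at 96 h (right panel); points are edgeR estimates from 3 libraries per group, filled where the adjusted p is below 0.05, and bars are 1 SE. At 48 h the NTC points of PHGDH, PSAT1, MTHFD2 and ALDH1L2 lie between -1.36 and -1.21, and at 96 h the SHMT1 point of the PELO line lies at -1.18.

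PHGDH (ENSG00000092621.13, chromosome 1, 119648411 to 119744226 on the + strand; GENCODE 29, build GRCh38, here and below) catalyses the committed step of serine synthesis. At 48 h PHGDH had 176, 174 and 176 CPM in the PELO line with dox, against 218, 212 and 227 CPM without dox. The HBS1L line held 130, 131 and 133 CPM with dox, against 226, 228 and 223 CPM without. The NTC line held 116, 118 and 119 CPM with dox, against 274, 279 and 266 CPM without. In each line every dox library was below every no-dox library, and the drop was smallest in the PELO line. Dox and no-dox libraries at 48 h did not overlap for 52.1% of all genes tested in the PELO line. The share was 39.7% in the HBS1L line and 46.2% in the NTC line, and lack of overlap below is read beside these. The log2 changes were -0.32 ± 0.043 (adjusted p = 8.49e-08) in the PELO line, -0.79 ± 0.043 (adjusted p = 8.89e-17) in the HBS1L line and -1.21 ± 0.044 (adjusted p = 1.24e-22) in the NTC line. The PELO response exceeded the NTC response by 0.89 ± 0.061 (log2, adjusted p = 9.81e-15) and the HBS1L response exceeded it by 0.43 ± 0.061 (adjusted p = 2.28e-05). Among dox libraries alone PHGDH was higher than in the NTC line by 0.57 in the PELO line and by 0.16 in the HBS1L line (log2).

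At 96 h PHGDH moved in opposite directions in the 2 targeted lines. The PELO line held 135, 122 and 116 CPM with dox, against 171, 164 and 178 CPM without, a log2 change of -0.46 ± 0.043 (adjusted p = 7.68e-12). The HBS1L line held 204, 210 and 220 CPM with dox, against 108, 106 and 114 CPM without, a log2 change of 0.95 ± 0.044 (adjusted p = 2.87e-18). With dox every PELO library was below, and every HBS1L library above, the no-dox libraries of its own line. At 96 h the share of all genes without such overlap was 67.4% in the PELO line, 36.4% in the HBS1L line and 24.7% in the NTC line. In the NTC line the 3 dox libraries (97.2, 105 and 106 CPM) lay just under the 3 no-dox libraries (110, 110 and 107 CPM) and the difference did not pass, at -0.085 ± 0.044 (adjusted p = 0.243). The PELO response minus the HBS1L response was -1.41 ± 0.062 (adjusted p = 2.55e-20), the largest such difference among the 9 genes in absolute value. The no-dox group of the PELO line was above that of the NTC line, and with the dox libraries alone PELO exceeded NTC by 0.28 (log2, adjusted p = 9.22e-07 in edgeR).

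PSAT1 (ENSG00000135069.14, chromosome 9, 78297143 to 78330093 on the + strand), the aminotransferase of the pathway, followed PHGDH at 48 h. It had 268, 282 and 287 CPM in the PELO line with dox, against 338, 360 and 365 CPM without dox. HBS1L cells had 170, 168 and 171 CPM with dox, against 363, 350 and 357 CPM without. NTC cells had 169, 170 and 167 CPM with dox, against 435, 426 and 439 CPM without. Dox and no-dox libraries did not overlap in any line, and PSAT1 with dox was highest in the PELO line. Its log2 change was -0.35 ± 0.048 (adjusted p = 1.28e-07) in the PELO line, -1.07 ± 0.048 (adjusted p = 2.03e-19) in the HBS1L line and -1.36 ± 0.048 (adjusted p = 7.8e-23) in the NTC line, the last being the largest fall of any member at that time. At 96 h PSAT1 rose in the HBS1L line, with 265, 281 and 318 CPM with dox, against 176, 186 and 190 CPM without, a log2 change of 0.65 ± 0.048 (adjusted p = 9.13e-13). The PELO and NTC lines overlapped between dox and no dox, with log2 changes of 0.085 ± 0.048 (adjusted p = 0.113) and -0.029 ± 0.048 (adjusted p = 0.784).

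PSPH (ENSG00000146733.14, chromosome 7, 56011051 to 56051604 on the - strand), the phosphatase that finishes the pathway, moved in the same direction with smaller changes. At 48 h it averaged 66.4 ± 1.64 CPM with dox and 81.4 ± 2.66 CPM without in the PELO line, 53.0 ± 0.834 and 83.3 ± 3.34 CPM in the HBS1L line, and 49.4 ± 0.867 and 89.3 ± 3.03 CPM in the NTC line (mean ± SD, n = 3 each, dox before no dox). It fell in all 3 lines, with log2 changes of -0.29 ± 0.041 (adjusted p = 1.51e-07) in the PELO line, -0.65 ± 0.041 (adjusted p = 2.69e-15) in the HBS1L line and -0.85 ± 0.041 (adjusted p = 5.08e-19) in the NTC line. At 96 h its 6 group means lay between 62.9 and 66.2 CPM and no line passed the test, with adjusted p from 0.402 to 0.955. The excess of the HBS1L response over the NTC response at 48 h, 0.20 ± 0.057 (adjusted p = 0.0396), was past the threshold only with nearly all libraries in the fit: leaving out any 1 of 10 of the 12 libraries gave an adjusted p of up to 0.145.

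Summed over PHGDH, PSAT1 and PSPH, the serine synthesis messages at 48 h were at 520 ± 11.4 CPM with dox and 654 ± 20.4 CPM without in the PELO line, at 354 ± 2.06 and 666 ± 8.11 CPM in the HBS1L line, and at 336 ± 2.29 and 796 ± 4.75 CPM in the NTC line (mean ± SD, n = 3 each, dox before no dox). At 96 h the sums were 459 ± 26.3 and 492 ± 16.0 CPM in the PELO line, 565 ± 36.1 and 357 ± 10.5 CPM in the HBS1L line, and 349 ± 9.26 and 359 ± 7.40 CPM in the NTC line, in the same order. With dox the HBS1L line thus held about the NTC amount at 48 h and the highest amount of the 3 lines at 96 h.

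MTHFD2 (ENSG00000065911.13, chromosome 2, 74198562 to 74217565 on the + strand), the mitochondrial dehydrogenase and cyclohydrolase, was the most abundant member by count. At 48 h it had 432, 460 and 460 CPM in the PELO line with dox, against 465, 484 and 493 CPM without dox. HBS1L cells had 252, 249 and 250 CPM with dox, against 494, 471 and 476 CPM without. NTC cells had 234, 244 and 243 CPM with dox, against 574, 556 and 574 CPM without. With dox the HBS1L and NTC libraries lay at 234 to 252 CPM, while the PELO libraries lay at 432 to 460 CPM, just under their own no-dox libraries. The log2 change was -0.093 ± 0.041 (adjusted p = 0.0585) in the PELO line, which did not pass, -0.94 ± 0.041 (adjusted p = 1.07e-19) in the HBS1L line and -1.24 ± 0.041 (adjusted p = 1.73e-23) in the NTC line. The PELO response exceeded the NTC response by 1.15 ± 0.058 (log2, adjusted p = 1.52e-18). At 96 h MTHFD2 rose in the HBS1L line, with 355, 377 and 400 CPM with dox, against 280, 301 and 295 CPM without, by 0.37 ± 0.041 (adjusted p = 1.5e-08). In the PELO line it had 406, 381 and 383 CPM with dox, against 377, 362 and 380 CPM without, and the difference of 0.064 ± 0.041 (adjusted p = 0.167) did not pass. Exons of other genes overlap 33.2% of the exonic length of MTHFD2, mostly SLC4A5 on the opposite strand, whose counts were 0.13% of those of MTHFD2; a gene named AC006030.1 overlaps 6.1% and held 6.52%.

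MTHFD1L (ENSG00000120254.16, chromosome 6, 150865549 to 151101887 on the + strand), which releases formate in mitochondria, was the member that rose in the PELO line at both times. At 48 h it had 127, 124 and 129 CPM in the PELO line with dox, against 94.2, 96.3 and 97.3 CPM without dox. The HBS1L line had 66.9, 67.4 and 67.8 CPM with dox, against 98.2, 97.2 and 96.2 CPM without. The NTC line had 65.3, 66.7 and 65.6 CPM with dox, against 111, 116 and 112 CPM without. At that time the dox libraries were all above the no-dox libraries in the PELO line and all below them in the other 2 lines. The log2 changes were 0.40 ± 0.041 (adjusted p = 2.52e-10) in the PELO line, -0.53 ± 0.041 (adjusted p = 1.44e-12) in the HBS1L line and -0.78 ± 0.041 (adjusted p = 1.12e-17) in the NTC line. The PELO response exceeded the NTC response by 1.18 ± 0.058 (adjusted p = 8.98e-19) and the HBS1L response by 0.93 ± 0.058 (adjusted p = 1.26e-15). At 96 h the PELO line had 141, 135 and 138 CPM with dox, against 81.9, 76.4 and 79.6 CPM without, a log2 change of 0.80 ± 0.041 (adjusted p = 3.82e-19). The HBS1L line had 82.4, 84.3 and 88.5 CPM with dox, against 63.8, 70.1 and 68.1 CPM without, a smaller rise of 0.34 ± 0.042 (adjusted p = 1.49e-07). The NTC line overlapped between dox and no dox, at 0.088 ± 0.042 (adjusted p = 0.202). Of the 9 genes MTHFD1L was the one whose PELO response was above its HBS1L response at 96 h as well, by 0.46 ± 0.058 (adjusted p = 1.61e-08).

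SHMT2 (ENSG00000182199.11, chromosome 12, 57229327 to 57234935 on the + strand), which feeds serine carbon into the mitochondrial pathway, had 218, 208 and 215 CPM in the PELO line with dox at 48 h, against 237, 243 and 242 CPM without dox. In the HBS1L line it had 162, 167 and 172 CPM with dox, against 242, 247 and 239 CPM without. In the NTC line it had 160, 167 and 167 CPM with dox, against 287, 304 and 290 CPM without. Dox libraries were below no-dox libraries in all 3 lines, with log2 changes of -0.17 ± 0.043 (adjusted p = 0.000929) in the PELO line, -0.54 ± 0.043 (adjusted p = 2.21e-12) in the HBS1L line and -0.83 ± 0.043 (adjusted p = 4.42e-18) in the NTC line. At 96 h SHMT2 fell in the PELO line and rose in the HBS1L line. The PELO line averaged 173 ± 12.3 CPM with dox and 229 ± 11.0 CPM without, and the HBS1L line 230 ± 1.83 CPM with dox and 175 ± 7.84 CPM without (mean ± SD, n = 3 each). These log2 changes were -0.41 ± 0.043 (adjusted p = 1.28e-10) and 0.39 ± 0.043 (adjusted p = 1.13e-08), and their difference was -0.80 ± 0.061 (adjusted p = 6.81e-14).

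ALDH1L2 (ENSG00000136010.14, chromosome 12, 105019784 to 105084577 on the - strand), the mitochondrial 10-formyl-folate dehydrogenase, stood at a few CPM throughout. At 48 h it had 6.18, 4.43 and 5.38 CPM in the PELO line with dox, against 4.22, 4.03 and 3.25 CPM without dox. The HBS1L line stood at 1.88, 2.29 and 2.76 CPM with dox, against 3.63, 3.38 and 3.16 CPM without. The NTC line stood at 3.02, 3.11 and 3.09 CPM with dox, against 7.35, 7.10 and 8.58 CPM without. It rose in the PELO line, with a log2 change of 0.48 ± 0.12 (adjusted p = 0.000877), and fell in the HBS1L line, at -0.54 ± 0.13 (adjusted p = 0.00176), and the NTC line, at -1.32 ± 0.12 (adjusted p = 1.44e-11). The excess of the HBS1L response over the NTC response, 0.78 ± 0.17 (adjusted p = 0.006), missed the threshold without replicate 3 of the HBS1L line with dox, at an adjusted p of 0.0544. In the dox libraries alone it had the opposite sign: ALDH1L2 was lower in the HBS1L line than in the NTC line, at -0.40 (log2, adjusted p = 0.0243). At 96 h it rose in the HBS1L line, by 0.69 ± 0.13 (adjusted p = 0.000128), with 3.90, 3.86 and 4.20 CPM with dox, against 2.53, 1.97 and 2.90 CPM without. The NTC fall at that time, -0.47 ± 0.15 (adjusted p = 0.0434), kept its call without only 1 of the 6 libraries, replicate 3 without dox; leaving out each of the others gave an adjusted p of up to 0.191. The gene C12orf45 overlaps 1.7% of the exonic length of ALDH1L2 on the opposite strand, and its mean count was 358% of that of ALDH1L2. As no source used here says whether counting used the strand, reads in the overlap cannot be told apart, so ALDH1L2 is the member with the least certain values.

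SHMT1 (ENSG00000176974.21, chromosome 17, 18327860 to 18363563 on the - strand), the cytosolic hydroxymethyltransferase, fell with dox in the PELO line at both times. At 48 h it had 50.8, 50.4 and 52.4 CPM in the PELO line with dox, against 63.1, 64.6 and 67.4 CPM without dox. With the HBS1L guide SHMT1 had 80.0, 78.8 and 79.2 CPM with dox, against 70.1, 69.1 and 70.9 CPM without. The NTC line had 77.7, 77.7 and 77.8 CPM with dox, against 62.1, 59.3 and 60.1 CPM without. With dox SHMT1 was thus lower in the PELO line and higher in the HBS1L and NTC lines, with no overlap between dox and no dox in any line. The log2 changes were -0.34 ± 0.045 (adjusted p = 4.82e-08) in the PELO line, 0.18 ± 0.044 (adjusted p = 0.00245) in the HBS1L line and 0.36 ± 0.045 (adjusted p = 3.46e-08) in the NTC line. At 96 h the PELO line had 43.5, 40.2 and 37.3 CPM with dox, against 89.4, 89.0 and 94.6 CPM without. SHMT1 in the HBS1L line was at 84.0, 81.4 and 80.0 CPM with dox, against 81.3, 81.0 and 79.5 CPM without. In the NTC line it was at 81.0, 81.0 and 91.7 CPM with dox, against 83.5, 81.9 and 84.4 CPM without. The PELO libraries with dox lay below all other 96 h libraries, at 37.3 to 43.5 CPM, and the other lines overlapped between dox and no dox. The fall in the PELO line was -1.18 ± 0.045 (adjusted p = 6.92e-23), or 0.443 times the no-dox level. The PELO response minus the NTC response was -1.20 ± 0.063 (adjusted p = 3.35e-18), and minus the HBS1L response it was -1.20 ± 0.063 (adjusted p = 4.01e-18). SMCR8 overlaps 2.7% of the exonic length of SHMT1 on the opposite strand and had a mean count 83.6% as large, so reads in that overlap cannot be told apart either.

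MTHFD1 (ENSG00000100714.17, chromosome 14, 64388031 to 64463457 on the + strand), the cytosolic enzyme that reloads formate onto folate, had the narrowest range of group means, though its 96 h changes in the targeted lines were not the smallest. At 48 h it averaged 218 ± 10.4 CPM with dox and 245 ± 8.10 CPM without in the PELO line, 234 ± 9.66 and 226 ± 3.61 CPM in the HBS1L line, and 252 ± 4.01 and 224 ± 7.57 CPM in the NTC line (mean ± SD, n = 3 each, dox before no dox). It fell in the PELO line, at -0.17 ± 0.042 (adjusted p = 0.00112), and rose in the NTC line, at 0.17 ± 0.042 (adjusted p = 0.00113); the HBS1L groups overlapped, at 0.05 ± 0.041 (adjusted p = 0.454). At 96 h it averaged 219 ± 2.97 CPM with dox and 280 ± 13.7 CPM without in the PELO line, 249 ± 4.17 and 287 ± 10.5 CPM in the HBS1L line, and 313 ± 13.2 and 301 ± 3.06 CPM in the NTC line, in the same order. It fell in both targeted lines, with log2 changes of -0.35 ± 0.041 (adjusted p = 2.02e-09) in the PELO line and -0.21 ± 0.041 (adjusted p = 0.000344) in the HBS1L line, while the NTC line did not pass, at 0.056 ± 0.041 (adjusted p = 0.447).

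Messages of the mitochondrial and cytosolic enzymes are set side by side as ratios of CPM per kilobase of the principal transcript within a library. Such ratios compare RNA only, and neither enzyme amounts nor the flow of carbon in the compartments was measured. At 48 h the ratio of SHMT2 to SHMT1 was 4.17, 4.01 and 3.98 in the PELO line with dox, against 3.65, 3.65 and 3.49 without dox. In the NTC line it was 2.00, 2.09 and 2.08 with dox, against 4.49, 4.98 and 4.69 without, and in the HBS1L line 1.97, 2.06 and 2.11 with dox, against 3.35, 3.47 and 3.27 without. So the ratio was higher with dox in the PELO line and lower in the other 2 lines, with no overlap between dox and no dox. At 96 h it averaged 4.16 ± 0.0558 with dox and 2.44 ± 0.0381 without in the PELO line, 2.73 ± 0.0903 and 2.11 ± 0.105 in the HBS1L line, and 2.14 ± 0.0895 and 2.09 ± 0.00823 in the NTC line (mean ± SD, n = 3 each, dox before no dox). The ratio of MTHFD1L to MTHFD1, the formate-releasing to the formate-binding enzyme, averaged 0.505 ± 0.0226 with dox and 0.342 ± 0.0168 without in the PELO line at 48 h, and 0.547 ± 0.00463 and 0.247 ± 0.0127 at 96 h. In the HBS1L line it averaged 0.251 ± 0.00947 with dox and 0.373 ± 0.00303 without at 48 h, and 0.298 ± 0.00779 and 0.204 ± 0.00343 at 96 h. In the NTC line it averaged 0.227 ± 0.00423 with dox and 0.440 ± 0.00705 without at 48 h, and 0.198 ± 0.00898 and 0.194 ± 0.0112 at 96 h. These ratios were not tested, and with 3 libraries against 3 an exact permutation test cannot go below 0.1.

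Set against the control line, the serine synthesis and mitochondrial genes stood higher and the cytosolic genes lower in the PELO line at 48 h. Beyond the NTC response, 7 of the 9 genes were higher and SHMT1 and MTHFD1 lower in the PELO line, where 47.9% of all genes passed (22.9% higher and 24.9% lower). The median difference was 0.89 for the 9 genes and -0.04 for all genes tested, and that of ALDH1L2 was 1.80 ± 0.17 (adjusted p = 2.18e-11), the largest of the 9. In the dox libraries alone, where 57.3% of all genes passed, PELO exceeded NTC by 0.80 for ALDH1L2, less than the 0.94 for MTHFD1L and the 0.91 for MTHFD2, and by 0.37 for SHMT2 (log2). Without dox ALDH1L2 averaged 3.83 CPM in the PELO line and 7.68 CPM in the NTC line. In the HBS1L line 7 genes were higher beyond the NTC response and SHMT1 and MTHFD1 did not pass, where 3.85% of all genes passed (1.41% higher and 2.44% lower), with a median of 0.29 beside -0.0092. The share of all genes was 6.90% with only these 4 groups in the fit, 2.29% without replicate 3 of the NTC line with dox and 2.42% without replicate 3 of the NTC line without dox. In the dox libraries alone 2 of the 9 genes differed between HBS1L and NTC, PHGDH higher and ALDH1L2 lower, where 23.1% of all genes passed. As both responses are set against the same NTC libraries, the 2 comparisons share their controls.

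At 96 h SHMT1 and MTHFD1 were lower and MTHFD1L higher in the PELO line, both beyond the NTC response and in the dox libraries alone. Beyond the NTC response MTHFD1L was higher in the PELO line and PHGDH, SHMT1, MTHFD1 and SHMT2 were lower, where 54.8% of all genes passed (28.7% higher and 26.0% lower), with a median of -0.033 beside 0.018 for all genes. In the dox libraries alone, 8 genes differed between PELO and NTC, 5 higher and 3 lower, where 64.3% of all genes passed. PHGDH had opposite signs in these comparisons, at -0.38 beyond the NTC response and 0.28 (adjusted p = 9.22e-07) in the dox libraries alone. SHMT2 was at -0.46 beyond the NTC response and -0.10 (adjusted p = 0.0366) in the dox libraries alone. For HBS1L 6 genes were higher beyond the NTC response and MTHFD1 was lower, where 10.7% of all genes passed (5.41% higher and 5.32% lower), with a median of 0.30 beside 0.012. That share of all genes was 6.56% without replicate 2 of the HBS1L line without dox, 7.01% without replicate 2 of the HBS1L line with dox and 6.62% without replicate 2 of the NTC line without dox. Among the fits with 1 library left out it was highest, at 11.4%, without replicate 3 of the HBS1L line with dox. With only the contrast's groups in the fit it was 11.6%. With dox libraries alone 7 of the 9 genes differed between HBS1L and NTC, where 29.8% of all genes passed. Beyond the NTC response PHGDH differed by 1.04 ± 0.062 (adjusted p = 1.27e-14) and PSAT1 by 0.68 ± 0.068 (adjusted p = 6.1e-09).

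**Figure D3:**
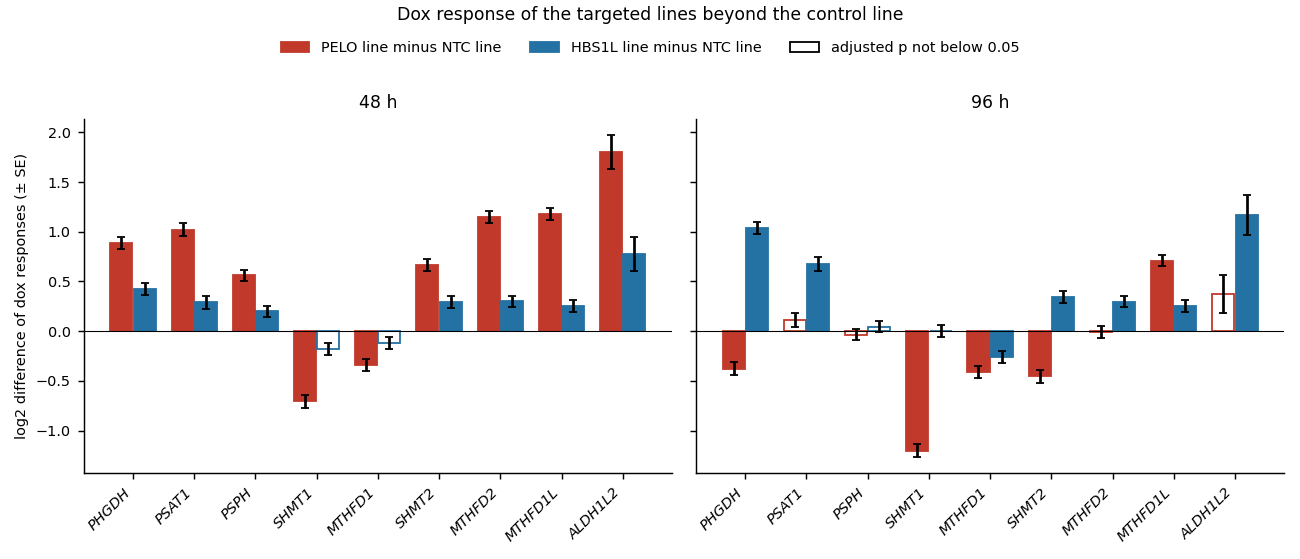
Difference of dox responses (y axis, log2 scale) of the PELO line minus the NTC line and of the HBS1L line minus the NTC line, for the 9 genes (x axis) at 48 h (left panel) and at 96 h (right panel); bars start at 0, the NTC response, are filled where the adjusted p is below 0.05, and carry 1 SE from edgeR. PHGDH lies at 0.89 for PELO at 48 h and at -0.38 at 96 h, and MTHFD1L lies above 0 in all 4 comparisons.

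Between the 2 targeted lines directly, the PELO response at 48 h was above the HBS1L response for 7 genes and below it for SHMT1 and MTHFD1, where 43.2% of all genes passed (21.9% higher and 21.3% lower). At 96 h it was above for MTHFD1L and below for 7 genes, PSPH not passing, where 55.5% of all genes passed (29.1% higher and 26.4% lower). For PSAT1 the difference at 48 h was 0.72 ± 0.067 (adjusted p = 3.41e-11), and the difference at 96 h was -0.56 ± 0.067 (adjusted p = 4.83e-09). MTHFD1 at 96 h, -0.14 ± 0.059 (adjusted p = 0.0357), lost its call without replicate 3 of the PELO line without dox or without replicate 1 without dox or replicate 3 with dox of the HBS1L line, with an adjusted p of up to 0.0781.

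The response at 96 h minus that at 48 h was positive for 4 genes and negative for 4 in the PELO line, PHGDH not passing, where 42.1% of all genes passed (22.1% higher and 19.9% lower). The HBS1L line had 7 genes with a positive difference and MTHFD1 with a negative one, where 22.4% of all genes passed (12.2% higher and 10.2% lower). For NTC 7 genes were positive and SHMT1 negative, where 26.5% of all genes passed (12.3% higher and 14.1% lower). PHGDH differed by 1.74 ± 0.062 (adjusted p = 2.89e-22) in the HBS1L line and 1.13 ± 0.062 (adjusted p = 8.04e-17) in the NTC line, and SHMT1 by -0.83 ± 0.064 (adjusted p = 4.17e-13) in the PELO line. Beside these differences, PHGDH in the NTC line with dox averaged 103 CPM at 96 h and 118 CPM at 48 h. Without dox it averaged 109 CPM at 96 h and 273 CPM at 48 h, so the no-dox groups stood farther apart. The MTHFD2 difference in the PELO line, 0.16 ± 0.058 (adjusted p = 0.0265), lost its call on leaving out any of 9 of the 12 libraries, with an adjusted p of up to 0.159.

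Without dox the PELO and NTC lines differed at both times, in opposite directions for most of the 9 genes. The HBS1L and NTC lines differed without dox at 48 h and hardly at 96 h. At 48 h without dox 7 of the 9 genes were lower in the PELO line than in the NTC line and MTHFD1 was higher, where 11.1% of all genes passed (4.72% lower and 6.37% higher). The HBS1L line likewise had 7 lower and SHMT1 higher than the NTC line, where 37.9% of all genes passed (19.2% lower and 18.7% higher). ALDH1L2 differed most, with 3.83 CPM in the PELO line and 3.39 CPM in the HBS1L line, against 7.68 CPM in the NTC line, or log2 differences of -1.0 ± 0.11 (adjusted p = 7.75e-08) and -1.18 ± 0.11 (adjusted p = 7.6e-10). Of these calls PSPH in both lines and MTHFD1 in the PELO line were lost on leaving out single libraries, with an adjusted p of up to 0.338. At 96 h without dox 7 genes were higher in the PELO line than in the NTC line, where 21.8% of all genes passed (10.3% higher and 11.5% lower). PHGDH averaged 171 ± 7.16 CPM in the PELO line and 109 ± 1.63 CPM in the NTC line (mean ± SD, n = 3 each), a log2 difference of 0.65 ± 0.044 (adjusted p = 4.51e-13). The SHMT1 call there, 0.13 ± 0.044 (adjusted p = 0.033), was lost without any of 3 of the 6 libraries, with an adjusted p of up to 0.141. Between the HBS1L and NTC lines without dox at 96 h edgeR called 0 of the 9 genes and 0.135% of all genes (0.0867% higher and 0.0482% lower). On leaving out single libraries the share of all genes was 0.0566% to 0.198%, with moves of over 1.5 times on leaving out NTC replicate 2, HBS1L replicate 1 or HBS1L replicate 3. An unadjusted p below 0.05 was seen for 0 of the 9, and DESeq2 and limma also called 0.

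Across the 12 group means of log2 CPM the members fell into blocks, as a description of groups that share time blocks and lines. PSAT1 and MTHFD2 had a Pearson r of 0.97, PHGDH and SHMT2 0.93, and PSPH and MTHFD2 0.93. SHMT1 and MTHFD1 had an r of 0.74 with each other. MTHFD1L went with MTHFD2 (r = 0.80) and against SHMT1 (r = -0.89) and MTHFD1 (r = -0.75). Among 9830 other genes with a mean of at least 10 CPM, the genes most like PHGDH over the 12 groups were PCK2 (r = 0.975), HAX1 (0.952) and SLC43A1 (0.935). PSAT1 was most like YARS1 (0.967), MARS1 (0.962) and EIF4EBP1 (0.961), and MTHFD2 most like MARS1 (0.987), YARS1 (0.982) and CTH (0.963). SHMT2 was most like PCK2 (0.956), PYGB (0.95) and LONP1 (0.921), and MTHFD1 most like NACC1 (0.974), PDCL (0.972) and CNP (0.971). PCK2 is the mitochondrial carboxykinase that makes phosphoenolpyruvate, YARS1 and MARS1 charge tyrosine and methionine transfer RNAs, and CTH makes cysteine from cystathionine.

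**Figure D4:**
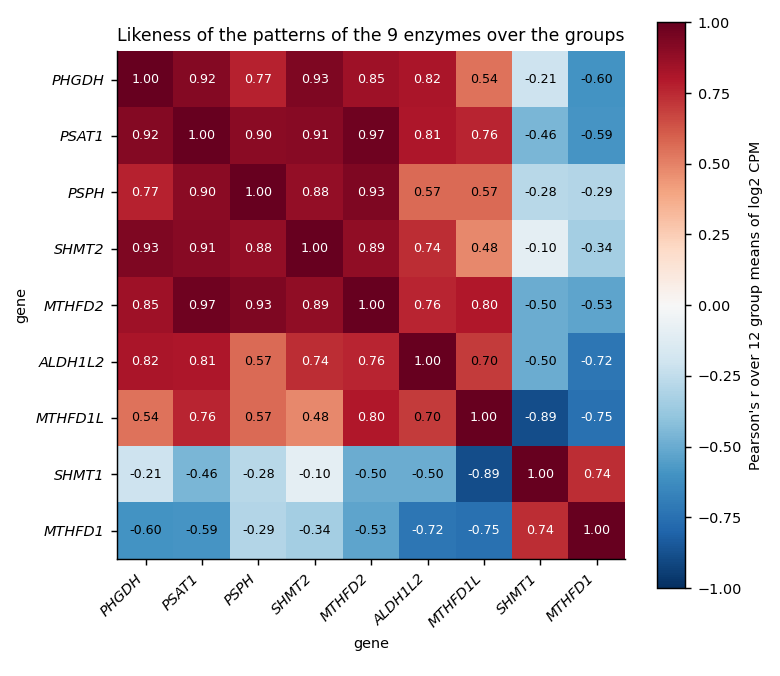
Pearson correlation (colour, from -1 to 1) between the 9 genes over the 12 group means of log2 CPM; rows and columns are the genes. The serine synthesis genes, SHMT2 and MTHFD2 form a block with r of at least 0.77, and SHMT1 and MTHFD1 are negative against all of them.

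Genes around the 9 enzymes moved in both directions. Beyond the NTC response in the PELO line at 48 h, of 12 other folate enzymes and carriers 4 were higher and 4 lower. The mitochondrial folate carrier SLC25A32 was higher, at 0.50 ± 0.084 (log2 ± SE, here and below). Thymidylate synthase TYMS was lower, at -0.55 ± 0.067. At 96 h 5 were higher and 5 lower, with SLC25A32 at 0.70 ± 0.081, MTHFD2L at 0.87 ± 0.11 and TYMS at -0.60 ± 0.066. Of the 4 genes of the glycine cleavage system, GLDC, the decarboxylase, was higher at both times, at 0.58 ± 0.11 and 1.23 ± 0.10 at 48 h and 96 h, and DLD was lower, at -0.53 ± 0.055 and -0.55 ± 0.055. These counts are read beside the 47.9% of all genes that passed at 48 h and 54.8% at 96 h.

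Carriers of serine and glycine also moved both ways. The counts of the 3 lists that follow stand beside 22.9% of all genes higher and 24.9% lower at 48 h, and 28.7% and 26.0% at 96 h. In the PELO line beyond NTC at 48 h 5 of 9 were higher and 2 lower, with a median of 0.80 beside -0.04 for all genes. The neutral amino acid exchanger SLC1A4 was at 2.54 ± 0.11 and the glycine transporter SLC6A9 at 2.13 ± 0.10. The mitochondrial sideroflexin SFXN3 was at -1.17 ± 0.12. At 96 h 5 were higher and 3 lower, with SLC25A38 at 1.17 ± 0.059, SLC38A1 at 1.15 ± 0.075 and SFXN3 at -1.56 ± 0.12. Of the 6 genes of purine synthesis, a pathway that takes up folate carbon, 4 were higher and PFAS lower at 48 h, and 3 were higher and PFAS lower at 96 h. PPAT, the first enzyme, was at 0.37 ± 0.068 at 48 h and 0.51 ± 0.067 at 96 h. In the methionine cycle 1 of 5 was higher and 3 lower at 48 h, and 2 were higher and 2 lower at 96 h, with MTRR at 0.66 ± 0.063 and 0.69 ± 0.062 at the 2 times, and AHCY at -0.74 ± 0.077 at 96 h.

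ATF4 and 11 other genes that ATF4 drives, a list without the 9 enzymes, were mostly higher beyond the NTC response in the PELO line, 11 of the 12 at 48 h and 10 at 96 h, where 22.9% and 28.7% of all genes were higher. The lowest member, which did not pass, was at -0.17 at 48 h and -0.15 at 96 h, and the median was 1.78 and 1.26 at the 2 times, beside -0.04 and 0.018 for all genes. In the PELO line at 48 h 6 of the 12 rose with dox and 2 fell, where 24.2% of all genes rose and 23.7% fell, with a median log2 change of 0.20. In the HBS1L line 11 fell, where 11.4% of all genes fell, with a median of -1.04, and in the NTC line 11 fell, where 16.0% did, with a median of -1.38. Beyond the NTC response at 48 h TRIB3, a stress-induced pseudokinase, was at 3.14 ± 0.083 and CEBPG, a partner of ATF4, at 1.74 ± 0.061 in the PELO line. At 96 h 10 rose in the PELO line, where 34.4% of all genes rose, with a median of 1.22, and 11 rose in the HBS1L line, where 11.0% did, with a median of 0.41. Beyond the NTC response at 96 h SLC3A2, a subunit of amino acid exchangers, was at 1.85 ± 0.067 and the stress sensor SESN2 at 2.40 ± 0.10 in the PELO line. In the same PELO comparison of dox with no dox at 96 h, the median was -0.039 for the 3 serine synthesis genes and -0.017 for the 4 mitochondrial genes. Whether the ATF4-driven genes and the 9 enzymes differ in their response was not tested.

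**Figure D5:**
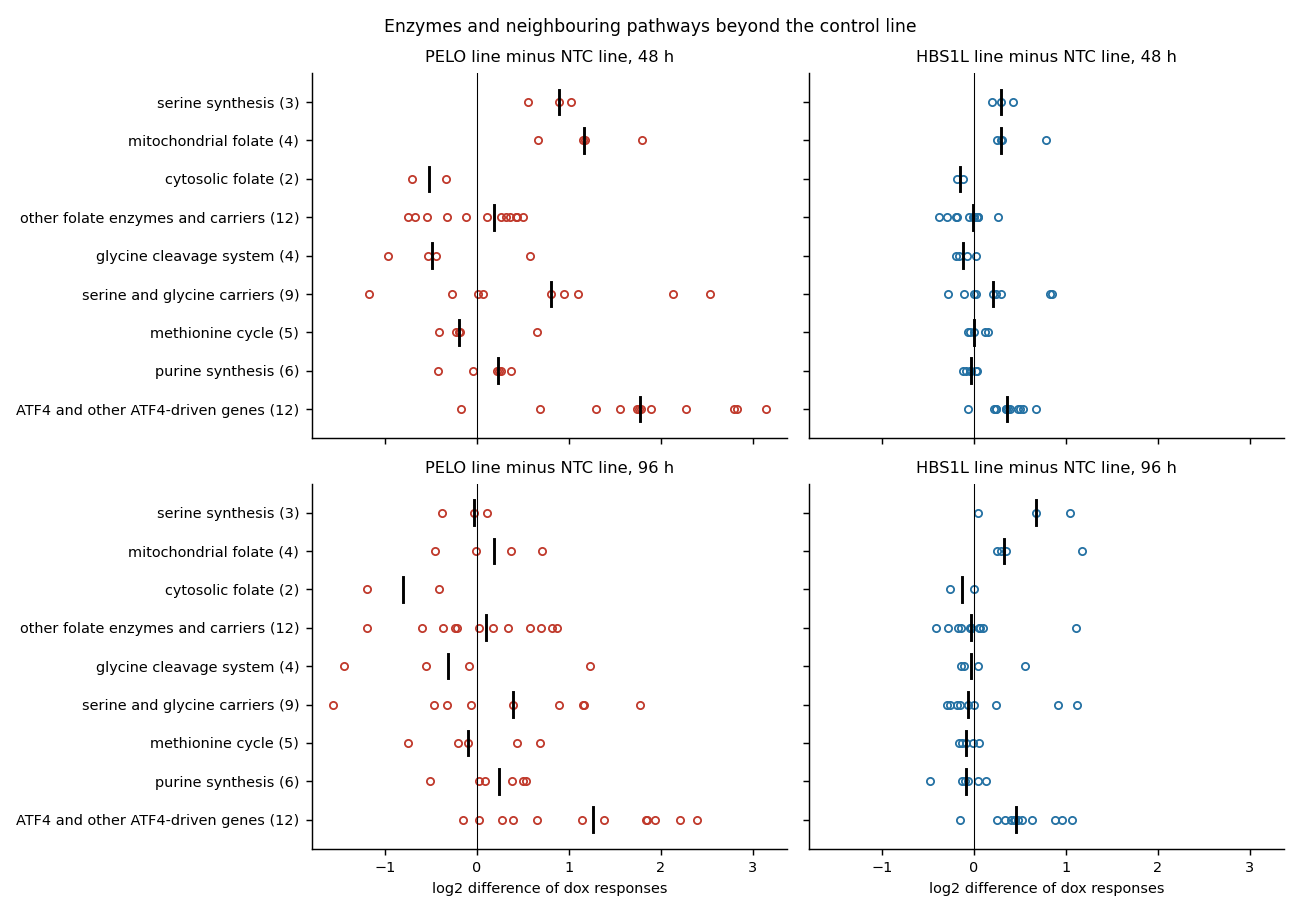
Log2 difference of dox responses (x axis) for every gene of the 9 enzymes in their 3 branches and of 6 surrounding lists (y axis, with the number of genes), for the PELO line minus the NTC line (left) and the HBS1L line minus the NTC line (right), at 48 h (top) and at 96 h (bottom). Each circle is 1 gene and each vertical line the median of a list, which for ATF4 and other ATF4-driven genes in the PELO line is 1.78 at 48 h and 1.26 at 96 h.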

How the data were processed

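The tools named, per the submitters' processing notes, are DRAGEN, Subread, featureCounts, limma and edgeR, with genome build GRCh38.p13. Their versions, settings and annotation: not given in the sources used here. One table of the authors, as deposited, holds expected counts per Ensembl gene, 1 column per library; 45.6% of the values above 0 are not whole. The authors' second table holds log2 CPM for 17138 genes, all 9 enzymes among them, and served only as an alternative.

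Counts were rounded and fitted with edgeR 4.0.16 in R 4.3.3 over the 36 libraries: filterByExpr with a minimum of 10 counts and a total of at least 15 per gene, TMM scaling, 1 mean per group, robust quasi-likelihood F tests of contrasts, and Benjamini-Hochberg adjustment over the 20767 genes tested at 0.05. SEs are the log2 change divided by the root of F. CPM are on TMM-scaled library sizes. A response is the change with dox; comparisons were responses, differences of responses between lines and times, and lines without dox. Alternatives were DESeq2 1.42.0, limma 3.58.1 on the log2 table, other size factors, no filter, fits on fewer groups, the dox libraries alone, a replicate block and each library left out. The dox libraries alone were compared between lines within the main fit, so that alternative compares levels with dox and not responses. The fit was also run on simulated counts, where few genes changed, in a single group, with the same spread for every gene. That setting is simpler than these data, so it says little about comparisons in which many genes passed. Symbols came from GENCODE 29 (61445 of 61544 identifiers matched), coordinates too.

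The 9 genes, the surrounding lists, the motifs and the comparisons were chosen with earlier results of these data known. Named by rule were the 9 genes always, PELO and HBS1L, at most 2 genes per list and direction with the smallest adjusted p in the PELO response minus the NTC response at each time, and the 3 genes most like PHGDH, PSAT1, SHMT2, MTHFD1 and MTHFD2. Some genes that this rule names are not reported here. Pseudogene copies of the 9 genes held at most 0.07% of the count of their parent gene.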

Additional observations from a re-analysis of the deposited data

Results flagged for a closer look

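Responses to dox differed between lines or times by a test of the difference itself (edgeR's quasi-likelihood test of the interaction), which put the following comparisons forward; each gives the number of the 9 genes past 0.05 and the largest log2 difference among them.

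Between the PELO and NTC lines 9 genes differed at 48 h, with ALDH1L2 at 1.80 (adjusted p = 2.18e-11), and 5 at 96 h, with SHMT1 at -1.20 (adjusted p = 3.35e-18). Of all genes, 47.9% passed at 48 h and 54.8% at 96 h, so the 96 h count lay near that share. Between the HBS1L and NTC lines 7 differed at 48 h, with ALDH1L2 at 0.777 (adjusted p = 0.006), and 7 at 96 h, with ALDH1L2 at 1.17 (adjusted p = 8.84e-05). There 3.85% of all genes passed at 48 h and 10.7% at 96 h. In the dox libraries alone 2 genes differed between HBS1L and NTC at 48 h, with ALDH1L2 at -0.40 (adjusted p = 0.0243), the opposite sign, and ALDH1L2 was at 0.80 between PELO and NTC at 48 h. That HBS1L count stands beside 23.1% of all genes. Between the PELO and HBS1L lines 9 differed at 48 h, with ALDH1L2 at 1.02 (adjusted p = 8.35e-06), and 8 at 96 h, with PHGDH at -1.41 (adjusted p = 2.55e-20). Here the share of all genes was 43.2% at 48 h and 55.5% at 96 h. From 96 h minus 48 h, 8 genes differed in the PELO line, with SHMT1 at -0.83 (adjusted p = 4.17e-13), 8 in the HBS1L line, with PHGDH at 1.74 (adjusted p = 2.89e-22), and 8 in the NTC line, with PSAT1 at 1.33 (adjusted p = 1.06e-17). Shares of all genes for these differences were 42.1% in the PELO line, 22.4% in the HBS1L line and 26.5% in the NTC line. ALDH1L2, which leads 4 of these 9 comparisons, is the member with the fewest counts, 84.5 to 418 per library.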

How the results depend on the processing

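Over 171 values (9 genes in 19 comparisons), 130 passed the threshold. Of the 2574 values under alternatives, 2459 kept their direction and their side of the threshold, 66 lost the call, 16 gained one and 33 changed sign. Of the 130, 14 lost the call under at least 1 alternative and 2 changed sign, both with the dox libraries alone. DESeq2 and RLE size factors each changed 1 value, the PELO response of PHGDH at 96 h minus 48 h, which then passed. The number of genes called moved by over 1.5 times in 3 comparisons. For the NTC line at 96 h it was 0 in place of 1 with only the contrast's groups in the fit, and 0 to 1 on leaving out single libraries. With the dox libraries alone it was 2 in place of 7 for the HBS1L response minus the NTC response at 48 h. For the PELO response minus the NTC response at 96 h it was 8 in place of 5. That comparison leaves out the no-dox libraries. Its values thus differ from the differences of responses by the difference between the lines without dox. For PHGDH in the PELO line against the NTC line at 96 h, that no-dox difference was 0.65 (log2). With the dox libraries alone the sign changed for SHMT1 (0.0297) and ALDH1L2 (-0.40, adjusted p = 0.0243) in the HBS1L comparison, and for PHGDH (0.28), PSPH (0.033) and MTHFD2 (0.34, adjusted p = 3.9e-09) in the PELO one. The other changes of sign were of values near 0 that had not passed. With no filter they were 0.0065 for PSPH in the NTC line at 96 h (0.0055 in the authors' log2 table), 0.0089 for SHMT1 in the HBS1L response minus the NTC response at 96 h, and -0.010 for PHGDH, -0.0033 for PSPH and -0.0060 for MTHFD1L in the HBS1L line against the NTC line without dox at 96 h; there MTHFD2 was at 0.0042 with only the contrast's groups. Leaving out single libraries gave ranges over 0 for PSAT1 (-0.049 to 0.011), PSPH (-0.020 to 0.026) and SHMT1 (-0.035 to 0.058) in the NTC line at 96 h, for MTHFD2 (-0.062 to 0.016) in the PELO response minus the NTC response and SHMT1 (-0.032 to 0.061) in the HBS1L response minus the NTC response at 96 h, and for PHGDH (-0.025 to 0.025), PSAT1 (-0.045 to 0.016), PSPH (-0.0025 to 0.041), SHMT2 (-0.064 to 0.0021), MTHFD2 (-0.031 to 0.025) and MTHFD1L (-0.040 to 0.049) in the HBS1L line against the NTC line without dox at 96 h. Replicate numbers showed no sign of pairing over all genes tested. Same-numbered libraries had a median correlation of deviations of -0.006 at 48 h and -0.013 at 96 h, with 3 of 45 pairs over 0.1 each time. Differently numbered libraries had medians of 0.007 and 0.008. As these correlations weigh all genes alike, weak pairing could be missed. The replicate block changed 2 calls, both of PSPH: adjusted p = 0.0576 in the HBS1L response minus the NTC response at 48 h, where 6 genes were then called, and 0.0596 in the HBS1L line against the NTC line without dox at 48 h, where 7 were.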
